A study of Rattus norvegicus with 6 samples.

Results

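A set of 9 cardiac and fibroblast lineage transcription factors, Tcf21, Tbx18, Wt1, Tbx20, Tbx5, Gata4, Gata6, Hand2 and Meox1, was followed in RNA-Seq data of rat atrial fibroblasts. The factors were chosen by name, as regulators of the heart and of fibroblasts derived from the epicardium, and each of them was found among the 40154 genes of the deposited table. All 9 also passed the filter on low counts, which left 14852 genes. The fibroblasts came from the hearts of Sprague-Dawley rats aged 1 to 3 days, and atrial myocytes were removed by preplating, in which non-myocytes attach to the dish within 1.5 h. They received a negative control siRNA (si-NC) or an siRNA against glycerol-3-phosphate dehydrogenase 1-like (si-GPD1L) and were sequenced 24 h later as poly(A) RNA, with 3 libraries in each group. The labels of all 6 libraries also carry the treatment term "Atrial differentiation", which they do not explain. Whether the libraries of a group came from separate cultures, and whether more than 1 siRNA against GPD1L was used, is not given by the sources used here, so p-values measure the spread between these libraries.

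Fibroblasts of the heart arise largely from the epicardium, the outer cell layer that covers the myocardium. Cells leaving this layer pass through an epithelial-to-mesenchymal transition, and the factors Wt1, Tbx18 and Tcf21 are used as markers of that lineage. Unlike fibroblasts of many other organs, cardiac fibroblasts also keep transcribing factors best known from cardiomyocyte development, among them Gata4, Gata6, Tbx20, Tbx5 and Hand2. Meox1 is a homeobox factor of the mesenchyme that is known for its induction in activated fibroblasts.

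The read counts summed to between 16892255 and 20149732 per library. Gpd1l, the target, had 265, 314 and 321 counts in si-NC and 202, 229 and 303 counts in si-GPD1L replicates 1, 2 and 3. Scaled by TMM to the average library total, these were 262.3, 332.6 and 313.6 in si-NC and 220.5, 208.4 and 302.8 in si-GPD1L. On either scale si-GPD1L replicate 3 lay within the si-NC range, so the fall of the target was partial and uneven. Of the 22 interferon-stimulated genes listed, each rose from si-NC to the group labelled si-GPD1L by edgeR's quasi-likelihood test (adjusted p-value under 0.05). Their median log2 fold change was 6.16, and 4.03% of all genes tested passed this threshold with a rise. The list was chosen with earlier results of these data known, so its count does not rank it among the responses. The fibroblast label was checked against marker genes. Col1a1 and Col3a1, which encode a chain of type I and of type III collagen, stood at 16850 ± 3503 and 14770 ± 1956 TPM (SD, n = 3) in si-NC. Col1a2, the other chain of type I collagen, stood far lower at 209 ± 7.05 TPM. All 14 fibroblast markers passed the filter, with a summed level of 34140 to 44630 TPM in si-NC and 42630 to 45490 TPM in si-GPD1L. Col1a1 and Col3a1 made up most of this sum, which hides that 11 of the 14 had a log2 fold change below 0 in si-GPD1L. Cardiomyocyte transcripts were present too: all 19 markers passed the filter, their summed level was 3562 to 3799 TPM in si-NC and 3331 to 3530 TPM in si-GPD1L, and none was at 0. Several of the lineage factors are transcribed in cardiomyocytes as well as in fibroblasts, and the part of either cell type in a value given here was not tested. In such bulk RNA, fewer cells of a type and less RNA per cell cannot be told apart.

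The levels of the factors in si-NC are described first, in TPM, a unit that divides the counts by the length of the gene model, scales them to the same sum in every library and therefore allows genes to be compared. The mean level spanned a 328-fold range from Tcf21 to Tbx5. Tcf21, a basic helix-loop-helix factor needed to form cardiac fibroblasts, was the most abundant at 372 ± 16.4 TPM (SD, n = 3), above 97.6% of the genes tested. Tbx20, a T-box factor of the developing heart, followed at 149.6 ± 15.6 TPM, above 93.3% of the genes tested. Its read counts were above those of Tcf21 in every si-NC library (4138 to 4829 against 3387 to 3836). The order of these 2 in TPM thus depends on their model lengths, 3793 bases for Tbx20 and 1232 for Tcf21. The zinc finger factors Gata4 and Gata6, which open and activate cardiac genes, stood at 110.8 ± 6.85 and 64.5 ± 2.43 TPM.

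Hand2, a basic helix-loop-helix factor of the heart and neural crest, had a level of 38.9 ± 1.75 TPM. Its gene model in the deposited table covers only 644 bases, against 1232 to 6768 bases for the other factors, so its place in the order depends on that model. Tbx18, a T-box factor of the epicardium, had 18.2 ± 1.36 TPM. Wt1, the zinc finger factor of the epicardium and kidney, had 7.34 ± 0.535 TPM, and Meox1 had 6.17 ± 0.787 TPM. Tbx5, a T-box factor of the atria and forelimb, was lowest at 1.14 ± 0.215 TPM, above only 12.1% of the genes tested.

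The ranges of the 3 si-NC libraries did not overlap between neighbours in this order, with the exception of Wt1 (6.75 to 7.79 TPM) and Meox1 (5.51 to 7.04 TPM), whose levels did not differ beyond their spread. The smallest step between neighbours without overlap was that from Tbx20 to Gata4, at 1.35-fold. The order was the same for all 9 factors in si-GPD1L. The spread of Tbx5 between libraries, a coefficient of variation of 18.9%, stood beside the 14.7% that counting error alone gives for its 39 to 52 counts per si-NC library.

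**Figure D1:**
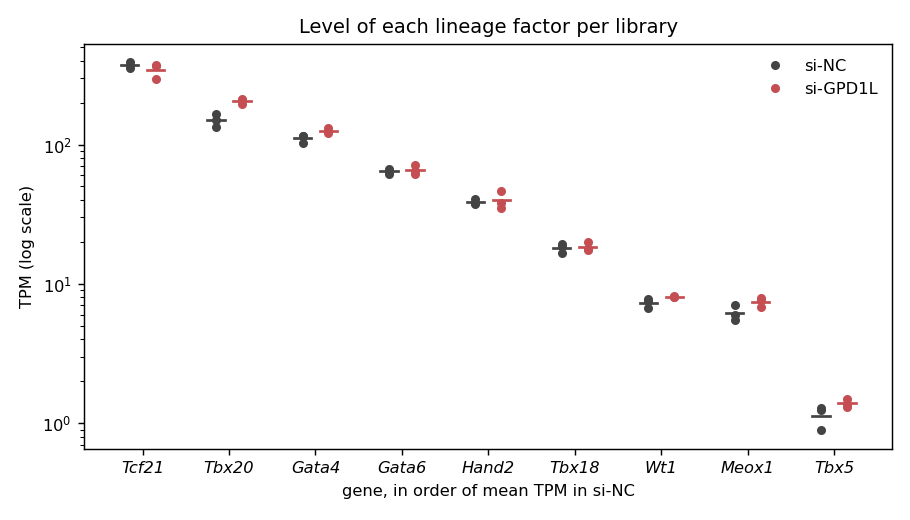
TPM of each factor on a log axis, with 1 point per library and a horizontal bar for the mean of each group (dark, si-NC; red, si-GPD1L; n = 3 each), in the order of the si-NC means. The factors run from Tcf21 at 372 TPM to Tbx5 at 1.14 TPM in si-NC and keep their order in si-GPD1L.

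The comparison of si-GPD1L with si-NC asks whether transfection with the siRNA against GPD1L went with a change of the lineage factors. Few differences past the spread between libraries were found. Of the 9 factors 1, Tbx20, passed an adjusted p-value of 0.05 in edgeR's quasi-likelihood test, and it was higher in si-GPD1L. Over all genes tested, 6.36% passed this threshold and 4.03% passed it while higher in si-GPD1L, so 1 of 9 is not set apart from the background. With the study's fold threshold added, an absolute log2 fold change over 1, 1.62% of all genes passed and 0 of the 9 factors did, also by DESeq2 and by edgeR's exact test. An unadjusted p-value under 0.05 was found for 1 of the 9, Tbx20, and for 22.4% of all genes tested. The groups did not overlap for 3 of the 9 factors (Tbx20, Gata4 and Tbx5), against 29.0% of all genes tested. The median log2 fold change of the factors was 0.061, beside -0.0049 over all genes tested, with 5 factors above 0 and 4 below. Of those below 0, Tcf21 was lower in mean TPM too (372 in si-NC, 344 in si-GPD1L). Tbx18 (18.2 and 18.4), Gata6 (64.5 and 66.0) and Hand2 (38.9 and 39.9) were slightly higher in TPM, so their direction depends on the unit.

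**Figure D2:**
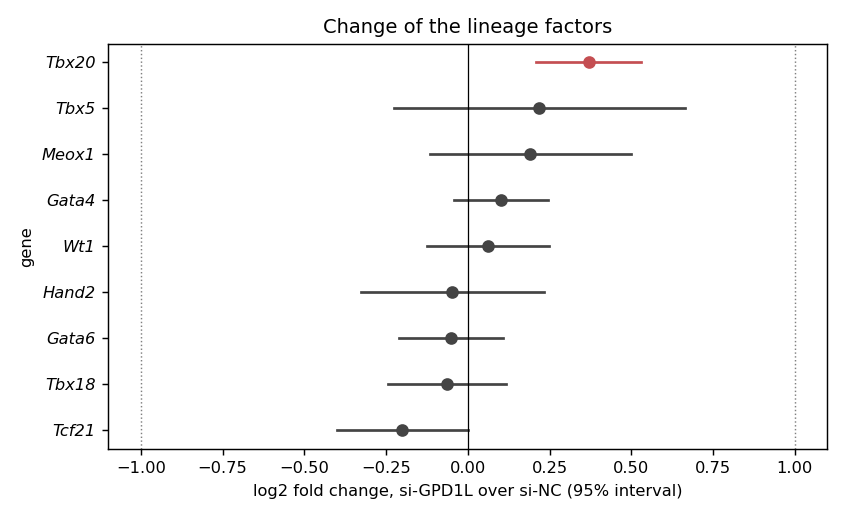
Log2 fold change of each factor, si-GPD1L over si-NC, with its 95% confidence interval as a line (edgeR, n = 3 per group); dotted lines mark the fold threshold of 1 in either direction. Tbx20, in red, is the factor whose adjusted p-value was under 0.05, and the interval of each of the other 8 includes 0.

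Tbx20 represses and activates genes of the heart and is needed for chamber formation. Its normalized count (scaled by TMM to the average library total) was 4190, 4383 and 4718 in si-NC replicates 1, 2 and 3 and 5476, 5902 and 5799 in si-GPD1L replicates 1, 2 and 3. Every si-GPD1L library was above every si-NC library. The log2 fold change was 0.37 (standard error 0.074, 95% interval 0.21 to 0.53), a 1.29-fold rise (edgeR's quasi-likelihood test, adjusted p = 0.0108). A larger absolute log2 fold change was found for 17.0% of the genes tested. The rise had its direction in each of the 14 alternative analyses, at 0.33 to 0.42 on the log2 scale. With groups that do not overlap, these alternatives could hardly reverse it, so the kept direction adds little support. The adjusted p-value of Tbx20 was above 0.05 in 3 of the fits that left out a library. These left out si-NC replicate 2 (0.0562), si-GPD1L replicate 2 (0.101) or si-GPD1L replicate 3 (0.0571). The number of all genes under the threshold was 550, 361 and 591 in these fits, against 945 with all libraries. It was 366 without si-GPD1L replicate 1, where Tbx20 kept an adjusted p-value under 0.05 (0.0408).

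The deposited transcript table holds 2 models of Tbx20, of 1709 and 3374 bases, which share reads. The shorter had 1109, 1247 and 1410 counts in si-NC and 1537, 2018 and 1766 in si-GPD1L, which is 0.46 higher on the log2 scale (adjusted p = 0.00633 over the transcripts tested, edgeR's quasi-likelihood test). The longer had 4212, 4119 and 4799 counts in si-NC and 4973, 6429 and 5774 in si-GPD1L, which is 0.35 higher on the log2 scale (adjusted p = 0.0153). Every si-GPD1L library was above every si-NC library for both models.

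Tbx20 lies on the minus strand at chr8:25849394-25904570 in the coordinates of the deposited table (rn6 per the submitters' processing notes, as for the coordinates of the other genes). The 250 bases upstream of its start in RefSeq's newer assembly GRCr8, at chr8:31534010-31534259 on the minus strand, are shown because it is the factor that changed. The capitals mark the matches to the motifs searched, on either strand.

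Tbx20: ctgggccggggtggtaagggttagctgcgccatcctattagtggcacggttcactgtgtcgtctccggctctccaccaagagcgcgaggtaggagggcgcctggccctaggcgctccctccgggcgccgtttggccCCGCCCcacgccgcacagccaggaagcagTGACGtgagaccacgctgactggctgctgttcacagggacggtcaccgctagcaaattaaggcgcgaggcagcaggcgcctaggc

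This window holds a GC box (GGGCGG, read on the opposite strand) at -114 to -109 from the start. It also holds the core of the cAMP response element (TGACG) at -85 to -81. Its GC content is 66.8%. Over all 33469 promoter windows of this length, 30.5% hold a GC box and 18.2% hold the letters TGACG. A core of the interferon-stimulated response element, searched as 2 copies of GAAA set 2 bases apart, occurs in 3.41% of all windows and in 0 of the windows of the 7 factors that have one (Tcf21, Tbx18, Wt1, Tbx20, Tbx5, Gata6 and Hand2). A match describes letters only and does not show that a factor binds there.

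The other T-box factors among the 9 did not pass the test. Tbx5 (plus strand, chr12:42059688-42148226), which cooperates with Gata4 and Nkx2-5 in cardiac gene activation, had normalized counts of 38.6, 49.8 and 50.8 in si-NC and 53.5, 57.3 and 50.96 in si-GPD1L. The lowest si-GPD1L value was just above the highest si-NC value. The log2 fold change was 0.22 (standard error 0.21, 95% interval -0.23 to 0.66, adjusted p = 0.575), so at this depth a rise to 1.58-fold or a fall to 85.4% of the si-NC level lies within the interval. Tbx18 (minus strand, chr8:95359354-95387363) had 634, 661 and 669 normalized counts in si-NC and 600.3, 599.6 and 679 in si-GPD1L, with si-GPD1L replicate 3 as the highest library of all. Its log2 fold change was -0.064 (95% interval -0.24 to 0.12, adjusted p = 0.702).

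The GATA pair showed no change past the test. Gata4 (minus strand, chr15:46386703-46458679) had 3349, 3470 and 3405 normalized counts in si-NC and 3644, 3789 and 3534 in si-GPD1L. The groups did not overlap, yet the log2 fold change was only 0.10 (standard error 0.067, 95% interval -0.043 to 0.25, adjusted p = 0.400). Gata6 (plus strand, chr18:2415821-2447087) had 1558, 1516 and 1533 normalized counts in si-NC and 1461, 1381 and 1602 in si-GPD1L. Its si-GPD1L libraries lay on both sides of the narrow si-NC range, and the log2 fold change was -0.052 (95% interval -0.21 to 0.11, adjusted p = 0.730). The level of Gata4 relative to Gata6 within a library, in TPM, was 1.66, 1.77 and 1.72 in si-NC and 1.93, 2.12 and 1.71 in si-GPD1L. The ratio of si-GPD1L replicate 3 lay within the si-NC range.

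Within a library the ratio of Tbx20 to another factor does not depend on the scaling. Tbx20 stood at 0.358, 0.388 and 0.463 times the TPM of Tcf21 in si-NC and at 0.659, 0.581 and 0.557 times in si-GPD1L. Relative to Gata4 it stood at 1.30, 1.31 and 1.44 times in si-NC and at 1.56, 1.62 and 1.70 times in si-GPD1L. Neither ratio overlapped between the groups, and the two-sided exact permutation test gave p = 0.10 for each, the smallest p that 3 libraries against 3 allow (adjusted p = 0.20 over the 4 ratios compared). The exact permutation test gave p = 0.30 for Tbx20 over Tbx5, which was 133.6 ± 14.8 in si-NC and 147.3 ± 8.90 in si-GPD1L (SD, n = 3), and p = 0.30 for Gata4 over Gata6. The ratios were chosen after the values had been seen.

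**Figure D3:**
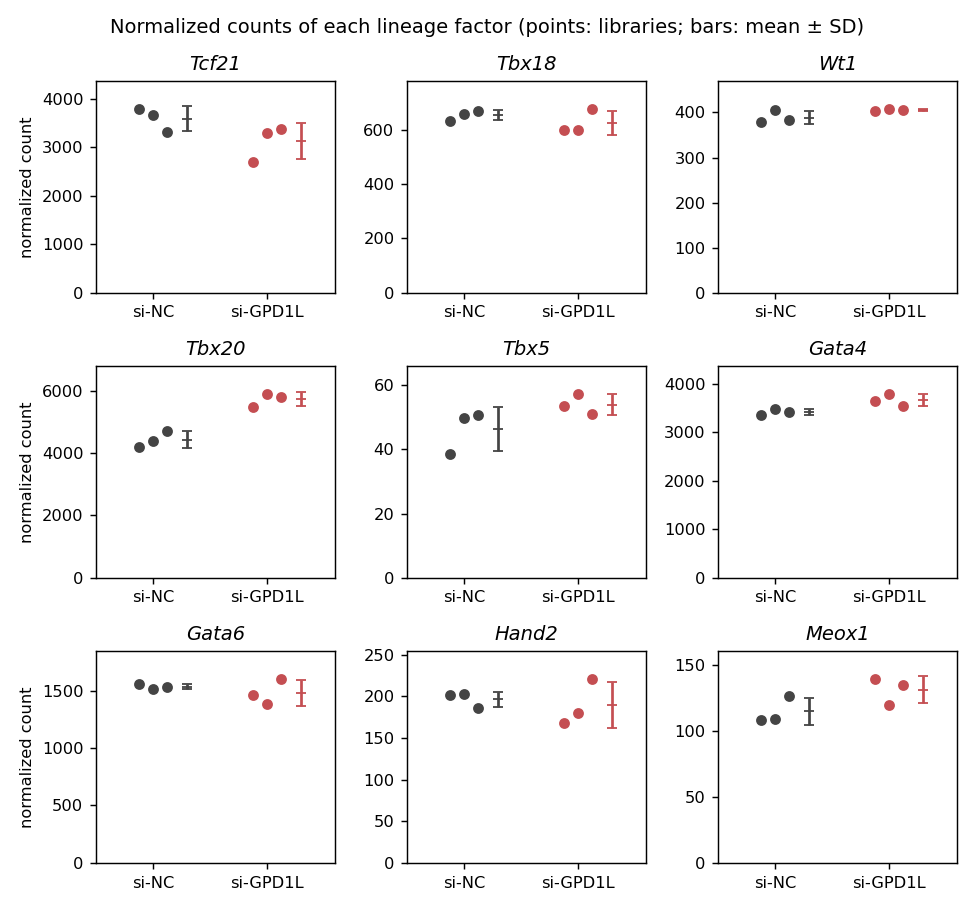
Normalized count of each factor, with 1 point per library and the mean ± SD beside it (dark, si-NC; red, si-GPD1L; n = 3 each; each axis starts at 0). The groups are apart for Tbx20, where the si-GPD1L libraries sit between 5476 and 5902 and the si-NC libraries between 4190 and 4718, and nearly touch or overlap for the others.

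Tcf21 was the factor with the lowest fold change. It had 3797, 3671 and 3309 normalized counts in si-NC and 2700, 3300.0 and 3378 in si-GPD1L. The library si-GPD1L replicate 1 was the lowest and replicate 3 lay within the si-NC range. The log2 fold change was -0.20 (standard error 0.092, 95% interval -0.40 to 0.00058, unadjusted p = 0.0506, adjusted p = 0.225, edgeR), and without si-GPD1L replicate 1 it was -0.11 (adjusted p = 0.597). A fall to 75.8% of the si-NC level was within the interval, so a moderate change of Tcf21 was neither detected nor bounded tightly. Tcf21 lies on the plus strand at chr1:23906717-23909576 (rn6). Its upstream window is shown as that of the most abundant factor, from GRCr8, chr1:24520249-24520498 on the plus strand, with the motif matches in capitals.

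Tcf21: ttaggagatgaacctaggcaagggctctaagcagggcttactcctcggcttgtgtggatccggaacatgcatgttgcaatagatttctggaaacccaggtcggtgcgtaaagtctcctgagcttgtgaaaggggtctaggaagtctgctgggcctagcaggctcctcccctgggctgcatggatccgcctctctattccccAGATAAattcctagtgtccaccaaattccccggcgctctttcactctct

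The capitals mark a GATA site (AGATAA) at -49 to -44 from the start, which 10.3% of all windows hold somewhere on either strand. Among the 7 factors with a window, Hand2 holds the same letters at -172 to -167, on the opposite strand. The letters GGTGTG, a core of the T-box element, were found only in the window of Wt1 among the 7, and in 15.4% of all windows. The GC content of the Tcf21 window is 53.6%.

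Wt1 (plus strand, chr3:95133221-95180574) controls the epithelial-to-mesenchymal transition of the epicardium. It had 378, 405 and 383 normalized counts in si-NC and 403, 409 and 405 in si-GPD1L, with si-NC replicate 2 at the level of the si-GPD1L libraries. The log2 fold change was 0.061 (standard error 0.086, 95% interval -0.13 to 0.25, adjusted p = 0.729). Hand2 (minus strand, chr16:36371489-36373551) had 201, 202 and 186 normalized counts in si-NC and 168, 180.1 and 221 in si-GPD1L, so that the si-GPD1L libraries enclosed the si-NC range. Its log2 fold change was -0.048 (standard error 0.13, 95% interval -0.33 to 0.23, adjusted p = 0.868), and it was 0.027 without si-GPD1L replicate 1.

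Meox1 (minus strand, chr10:89797011-89817009) had 108.9, 109.1 and 127 normalized counts in si-NC and 139.7, 120.1 and 134.9 in si-GPD1L. The si-GPD1L replicate 2 lay below si-NC replicate 3, so the groups overlapped. The log2 fold change was 0.19 (standard error 0.14, 95% interval -0.12 to 0.50, adjusted p = 0.460), and a rise to 1.41-fold was within the interval. Genes of the activated fibroblast were read beside it. Of 14 such genes 13 passed the filter, with a median log2 fold change of -0.049. At an adjusted p-value under 0.05, 1 was higher and 2 were lower, beside 6.36% of all genes tested in either direction. Fap, the fibroblast activation protein, fell by 0.82 on the log2 scale, Cthrc1 fell by 0.37 and Ltbp2 rose by 0.58 (adjusted p = 7.53e-05, 0.0157 and 0.00983, edgeR's quasi-likelihood test). Acta2 and Tagln, the abundant contractile genes at 4550 ± 92.8 and 3929 ± 287 TPM in si-NC, had values of -0.14 and -0.17 on that scale (adjusted p = 0.290 and 0.301).

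Other transcription factors of the same families and tissues were read as lists. Among 14 other T-box genes 7 passed the filter and 0 passed the adjusted p-value by edgeR's quasi-likelihood test, its exact test or DESeq2. An unadjusted p-value under 0.05 was found for 22.4% of all genes tested and for 1 of the 7 T-box genes. The most abundant of them were Mga at 20.5 ± 3.41 TPM, a large protein with a T-box domain, and Tbx2 at 7.27 ± 2.09 TPM, a repressor in the atrioventricular canal. Tbx3, its close relative in the conduction system, stood at 1.96 ± 0.642 TPM. The median log2 fold change of these 7 was -0.037.

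Of 7 GATA genes and cofactors, 6 were tested and 1 was higher. An adjusted p-value under 0.05 with a higher level in si-GPD1L was found for 4.03% of all genes tested. Gata3, best known from lymphocytes and from sympathetic neurons, rose from 204 ± 8.62 to 296 ± 31.1 normalized counts (SD, n = 3), a log2 change of 0.53 ± 0.11 (SE, adjusted p = 0.0139). It is a minor GATA gene here, at 3.74 TPM in si-NC against 110.8 TPM for Gata4. The cofactors Zfpm1 and Zfpm2, which bind GATA factors, stood at 27.8 ± 3.58 and 26.6 ± 3.61 TPM in si-NC and gave log2 values of -0.093 and 0.14 for si-GPD1L over si-NC (adjusted p = 0.513 and 0.324). Gata1, the erythroid member, had 0 counts in every library, and 0 counts allow up to 3.

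Of 30 other factors of heart development, 25 were tested, 1 was lower and 0 were higher, with a median log2 fold change of -0.037. DESeq2 called 1 and edgeR's exact test 2. Among all genes tested 6.36% passed the adjusted p-value of 0.05, so 1 of 25 is not set apart from the background. Nr2f2, which encodes COUP-TFII, a factor of atrial identity, fell from 1193 ± 78.3 to 928 ± 41.4 normalized counts, a log2 change of -0.36 ± 0.076 (SE, adjusted p = 0.0143). Nkx2-5, the homeobox partner of Gata4 and Tbx5 in cardiomyocytes, was present at 8.01 ± 1.098 TPM in si-NC and had a log2 fold change of -0.09035 (adjusted p = 0.807). Smarcd3 and Tead1, a chromatin remodelling subunit and a partner of YAP, were the most abundant of the list at 75.1 ± 4.17 and 73.4 ± 10.7 TPM in si-NC. Isl1 and Hand1, factors of the heart progenitors, were not tested, with at most 6 and 7 counts in any library.

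Of 33 other fibroblast and mesenchymal factors, 31 were tested, 3 were higher and 0 were lower, with a median log2 fold change of 0.018. For comparison, 4.03% of all genes tested passed the adjusted p-value of 0.05 while higher in si-GPD1L. DESeq2 called 4 of the 31 and edgeR's exact test 5. Sox9, a factor of cartilage and of matrix production, rose from 1944 ± 165 to 3089 ± 468 normalized counts, a log2 change of 0.67 ± 0.10 (SE, adjusted p = 0.00208). Scx, the tendon factor scleraxis, rose from 164.6 ± 18.4 to 311 ± 87.5, a log2 change of 0.91 ± 0.18 (SE, adjusted p = 0.00932), and Klf4 rose from 1553 ± 28.8 to 2040 ± 140, a log2 change of 0.39 ± 0.072 (SE, adjusted p = 0.00615). The values of Sox9 and Scx were above the 0.37 of Tbx20, and that of Klf4 lay within its standard error. Prrx1, the most abundant of the list at 199.9 ± 13.4 TPM in si-NC, and Nfix (listed as Nf1x), at 114 ± 22.7 TPM, had log2 values of -0.21 and 0.25 for si-GPD1L over si-NC (adjusted p = 0.144 and 0.164).

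**Figure D4:**
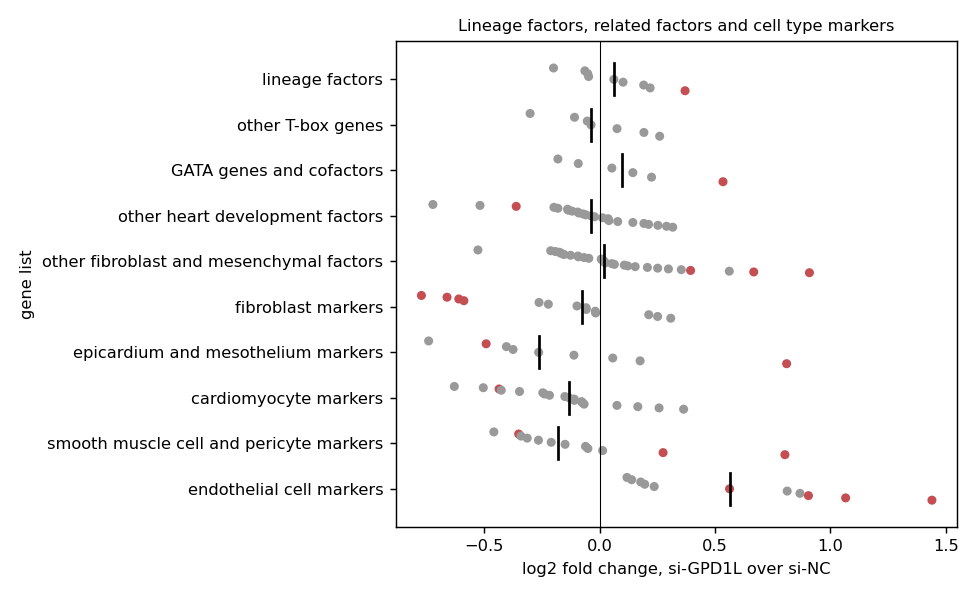
Log2 fold change of every tested gene of the 9 lineage factors and of 9 further lists, with 1 point per gene (red, adjusted p-value under 0.05; grey, not) and a black bar for the median of the list. The lineage factors lie between -0.20 and 0.37 around a median of 0.061, while the endothelial markers have a median of 0.56.

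Markers of the cell types that could share the culture were read beside the factors. An adjusted p-value under 0.05 was reached by 6.36% of all genes tested, and by 4.03% while higher in si-GPD1L. Of 19 cardiomyocyte markers 1, Pln, was lower with an adjusted p-value under 0.05 (log2 fold change -0.44, adjusted p = 0.0337), and the median was -0.13. Their most abundant members, Nppa and Tnnt2, stood at 1203 ± 90.6 and 1092 ± 51.4 TPM in si-NC and were at -0.22 and -0.25 on the log2 scale of change (adjusted p = 0.152 and 0.103). Of the 19 log2 fold changes 15 were below 0, and DESeq2 and edgeR's exact test each called 2 of the 19. The part of cardiomyocyte RNA in the Tbx20 values was not tested. Of the 15 markers of the epicardium and mesothelium 9 were tested, 1 was higher (C3, log2 fold change 0.81) and 1 lower (Sema3d, log2 fold change -0.49), with adjusted p = 0.0221 and 0.0102. The median log2 fold change of the 9 was -0.26, and 6 were below 0, among them Upk3b at -0.74 and Msln at -0.40, markers of the mesothelium (adjusted p = 0.229 and 0.203). Their summed level was 138.4 to 160.8 TPM in si-NC and 138.2 to 157.3 TPM in si-GPD1L. Aldh1a2, the retinoic acid enzyme of the epicardium, made up most of this sum at 95.1 ± 7.73 TPM in si-NC and had a log2 fold change of 0.057 (adjusted p = 0.711).

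Of the 14 fibroblast markers 4 were lower and 0 higher, with a median of -0.079. Over all 14852 genes tested, 346 were lower and 599 higher at this threshold, an adjusted p-value under 0.05. Lum, Dcn, S100a4 and Fbln1 had log2 fold changes of -0.77, -0.66, -0.61 and -0.59, further from 0 than the -0.20 of Tcf21, and passed the test (adjusted p = 0.0058, 0.0129, 0.00841 and 0.0172, edgeR). Pdgfra and Vim had -0.058 and -0.018 (adjusted p = 0.761 and 0.930). The 11 endothelial markers tested, of 12, had a median of 0.56. Among them 4 were higher, Plvap, Cdh5, Pecam1 and Tie1, and their summed level was 42.9 to 55.4 TPM in si-NC and 67.8 to 75.9 TPM in si-GPD1L. None of the 12 was at 0 in all libraries, and their part in the Tbx20 and Gata3 values was not tested. Of 12 smooth muscle cell and pericyte markers 2 were higher (Cspg4 and Mcam) and 1 lower (Des), with a median of -0.18. DESeq2 called 7 of these 12 and edgeR's exact test 6. Among 16 macrophage markers and 8 tested Schwann and neural crest cell markers 0 passed edgeR's quasi-likelihood test or DESeq2. In the exact test 1 of each list passed. An unadjusted p-value under 0.05 was found for 22.4% of all genes tested, and for 1 and 3 genes of these lists. The medians of these lists were -0.027 and -0.29.

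The genes whose profile over the 6 libraries was nearest to that of a factor were found by the root mean square difference of log2 normalized counts, centred on each gene's mean, among 11885 genes with at least 50 normalized counts on average. For Tbx20 they were Cd47, at a difference of 0.022, and Dlg2, at 0.025. For Tcf21 they were Cep83 and Rarres2, at 0.033 and 0.036. The nearest genes of Wt1 were Ncstn (0.0072) and Efemp2 (0.013), and those of Meox1 were Ccdc141 (0.028) and Pomt1 (0.035). Gata4 was nearest to LOC100360645 (0.013) and Ubb (0.018), which encodes a ubiquitin precursor, and Gata6 to Camk1 (0.020) and Ctdspl2 (0.022). The remaining factors were at 0.023 to 0.034 from their nearest genes, which were Akap17a and Golim4 for Tbx18, Zfp592 and Ephb3 for Tbx5, and LOC100362565 and Map3k8 for Hand2. With 6 libraries and many candidates, small differences are found for any gene, and no p-value is attached.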

How the data were processed

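The samples are 3 si-NC and 3 si-GPD1L libraries of rat atrial fibroblasts, grouped and numbered by their titles. The authors deposited read counts per gene and per transcript, whole numbers without normalization, and TPM values, which are counts per model length scaled to a common sum. The submitters' processing notes name bcl2fastq, HISAT2 2.1.0, HTSeq 0.12.4 and rn6, without roles. Whether the counting used strand is not given in the sources used here. The authors' deposited comparisons (pseudo-counts, fold changes, p-values, q-values) and enrichment tables were not used.

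From the gene counts, 14852 genes were kept by filterByExpr in edgeR 4.0.16 (R 4.3.3), scaled by TMM (factors 0.994 to 1.01) and tested between groups by the quasi-likelihood method, with Benjamini-Hochberg adjustment over all of these genes. Standard errors are the log2 fold change over the square root of F. Levels between genes use TPM. DESeq2 1.42.0 served as an alternative, and figures were drawn with matplotlib 3.10.9. The test was first run on simulated data. A count of 0 allows up to 3 counts, and intervals and floors cover counting error and the spread between libraries only.

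The factors, the 13 gene lists and the tests were chosen with earlier results of these data known. Of 217 list entries 213 were found by symbol and 4 by NCBI gene ID. Named besides the factors and Gpd1l are, of each list, up to 3 genes with the smallest adjusted p-value under 0.05 and up to 2 with the highest TPM in si-NC, and genes overlapping or nearest in profile to a factor. Not all of these are printed, and Tbx3, Nkx2-5, Isl1, Hand1, Gata1, Fbln1, Tie1, Upk3b, Msln, Pdgfra, Vim and the cofactors were named after their values were seen. Sequences are from RefSeq (GRCr8), which held a promoter window for 7 of the 9 factors. The replicate numbers were not taken to pair the libraries. Alternatives were other scalings, tests and filters, a replicate block, each library left out, and the transcript table.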

Additional observations from a re-analysis of the deposited data

How the results depend on the processing

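Of 126 values of the 9 log2 fold changes under the alternatives, 122 kept their direction and their side of the threshold. Tbx20 lost its call in 3 fits that left out a library, at 0.36 (si-NC replicate 2 left out), 0.35 (si-GPD1L replicate 2) and 0.36 (si-GPD1L replicate 3) on the log2 scale, so the number of factors called ran from 0 to 1 over the fits without a library. Its adjusted p-value ran from 0.000273 (DESeq2) to 0.101. Hand2 changed direction without si-GPD1L replicate 1 (0.027), and ran from -0.17 to 0.027 over the fits without a library. The cause was not tested. The number of genes called at an adjusted p-value under 0.05 was 945, with 1528 by edgeR's exact test and 361 to 1531 without single libraries. A smaller group is part of the construction of these fits. The number rose without si-NC replicate 1 (1531) or 3 (1451). It fell without si-NC replicate 2 (550) or any si-GPD1L library (361 to 591). Pairs of si-NC libraries differed more (chi-square per degree of freedom 6.52 to 20.6) than pairs of si-GPD1L libraries (3.2 to 4.63). The part of this spread in the calls was not tested. With the fold threshold added, 240 genes passed, and 164 to 314 under the alternatives. Other scalings moved the median of all genes to -0.0058 and -0.029 at most. With the replicate number as a block, the log2 fold change of Tbx20 was 0.37 (adjusted p = 0.0132) and the number of factors called was 1. Same-numbered libraries had correlations of their deviations of -0.0116, -0.00586 and 0.0434, so the numbers were not taken to pair the libraries. The order of the si-NC levels held for all 9 factors without each si-NC library. It also held in RPKM, but RPKM uses the same counts and model lengths as TPM and could hardly change the order. Depth limits Tbx5 most, at 39 to 63 counts per library.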

Other observations

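The deposited transcript table splits the other factors into models that share reads. Wt1 had 6 models of 2631 to 5813 bases with 265 to 427 counts per library, and their log2 fold changes ran from -0.0043 to 0.10 (adjusted p = 0.550 to 0.987 over the transcripts tested, edgeR's quasi-likelihood test). The 4 models of Gata4 had 3048 to 4031 counts and log2 fold changes of 0.071 to 0.081. The 2 models of Meox1 were at 0.14 and 0.23 on that scale (adjusted p = 0.684 and 0.369). The 10 models of Tbx5 had 19 to 62 counts per library. No model of these 4 factors passed the adjusted p-value of 0.05.

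Genes annotated on the opposite strand overlap 2 of the factors in the deposited coordinates. LOC102548615, a long non-coding gene, lies within Gata4 over 3573 bases and had 42 to 93 counts per library, against 3276 to 4164 for Gata4. LOC102549962 and a further non-coding gene lie within Tbx5 and had at most 3 counts and 0 counts in any library. The overlap was taken over whole gene spans, and whether exons are shared was not checked. Where they are, reads of such a pair cannot be told apart without a stated strand setting. No gene of the table overlaps the other 7 factors.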
